A study of Mus musculus with 16 samples.

Results

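Mitochondrial fatty acid oxidation was followed through 10 listed genes: the carnitine shuttle genes Cpt1a, Slc25a20 and Cpt2, the acyl-CoA dehydrogenases Acadvl, Acadl, Acadm and Acads, the trifunctional protein subunits Hadha and Hadhb, and Etfdh. The genes were chosen by name, with earlier results of these data known, so their counts beside the shares of all genes are descriptions. All 10 were measured among 22180 genes, each by the 1 probe set that carried its symbol alone. Expression was measured on 16 single-colour arrays of group 2 innate lymphoid cells (ILC2s), lymphocytes that reside in tissues, carry no antigen receptor and release type 2 cytokines. Lung ILC2s came from naive C57BL/6J mice (2 arrays) and from C57BL/6J mice given the alarmin cytokine IL-33 intranasally, at day 4 (3 arrays), week 2 (3 arrays) and 4 months (2 arrays) after treatment. From the lymph node that drains the lung, the mediastinal node (mLN), ILC2s were taken at day 4 (3 arrays) and week 2 (3 arrays) after intranasal IL-33. The labels give no strain for the mLN samples, and no dose, mouse age, sort markers or pooling for any sample. All values are log2 RMA signals, and a difference of 1 is a 2-fold change in signal.

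Long-chain fatty acids are activated to acyl-CoA in the cytosol and enter mitochondria as carnitine esters. In the matrix, each round of beta-oxidation removes acetyl-CoA through a dehydrogenation, a hydration, a second dehydrogenation and a thiolysis, and the electrons pass on to the respiratory chain. In ILC2s, fatty acid uptake and oxidation are known as a fuel for the cells' activity.

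The mean of 13 ILC2 markers lay between 9.04 and 9.59 on all 16 arrays. Single markers moved within it: at day 4 against naive lung, differences ran from -0.87 to 1.95. Of the 13, 4 were called higher and 1 lower (limma, adjusted p under 0.05 over all genes), beside 10.8% and 5.73% of all genes. The 4 arrays of naive and 4-month lung differed from the rest. Their 2 replicates correlated at 0.937 (naive) and 0.947 (4 months), those of the other groups at 0.977 or more, and the interquartile range of all genes was 2.05 to 2.47 on these 4 arrays against 2.85 to 3.07 on the other 12. Among the 9106 genes whose mean lay between the lowest and the highest member mean (4.45 and 8.08), the median difference from naive lung was 0.27 at day 4 and 0.26 at week 2, where over all genes it was -0.06 and -0.04. The mean of 11 T cell markers was 6.51 to 6.71 in naive lung and 5.07 to 5.50 elsewhere. The mean of 16 macrophage markers was 6.16 and 6.23 on the first and second day 4 lung replicates but 4.50 on the third, 5.45 on replicate 3 of week 2 lung, and 3.50 to 4.80 on the other 12 arrays.

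At day 4 after IL-33, lung ILC2s carried more transcript of 5 of the 10 genes than naive ones did, and less of 0 (limma, adjusted p under 0.05 over all genes). They were Cpt1a, Acadvl, Acadl, Hadha and Etfdh, that is the entry step, the dehydrogenases for long chains, the alpha subunit of the trifunctional protein, and the step that hands electrons to the respiratory chain. Over all genes 10.8% were called higher and 5.73% lower, and among the 9106 genes in the members' range of levels 21.6%. The median difference of the 10 genes was 0.86. All 10 differences were positive, from 0.07 for Acads to 1.30 for Cpt1a, but 3 of them turned negative in some alternatives: Hadhb (-0.43) and Slc25a20 (-0.18) without naive replicate 2, and Acads without naive replicate 1 (-0.15), among other settings. On 6 of the 10, all 3 day 4 arrays lay above both naive arrays, which was so for 22.0% of all genes. That share was not counted among the genes in the members' range of levels, whose median difference was 0.27.

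**Figure D1:**
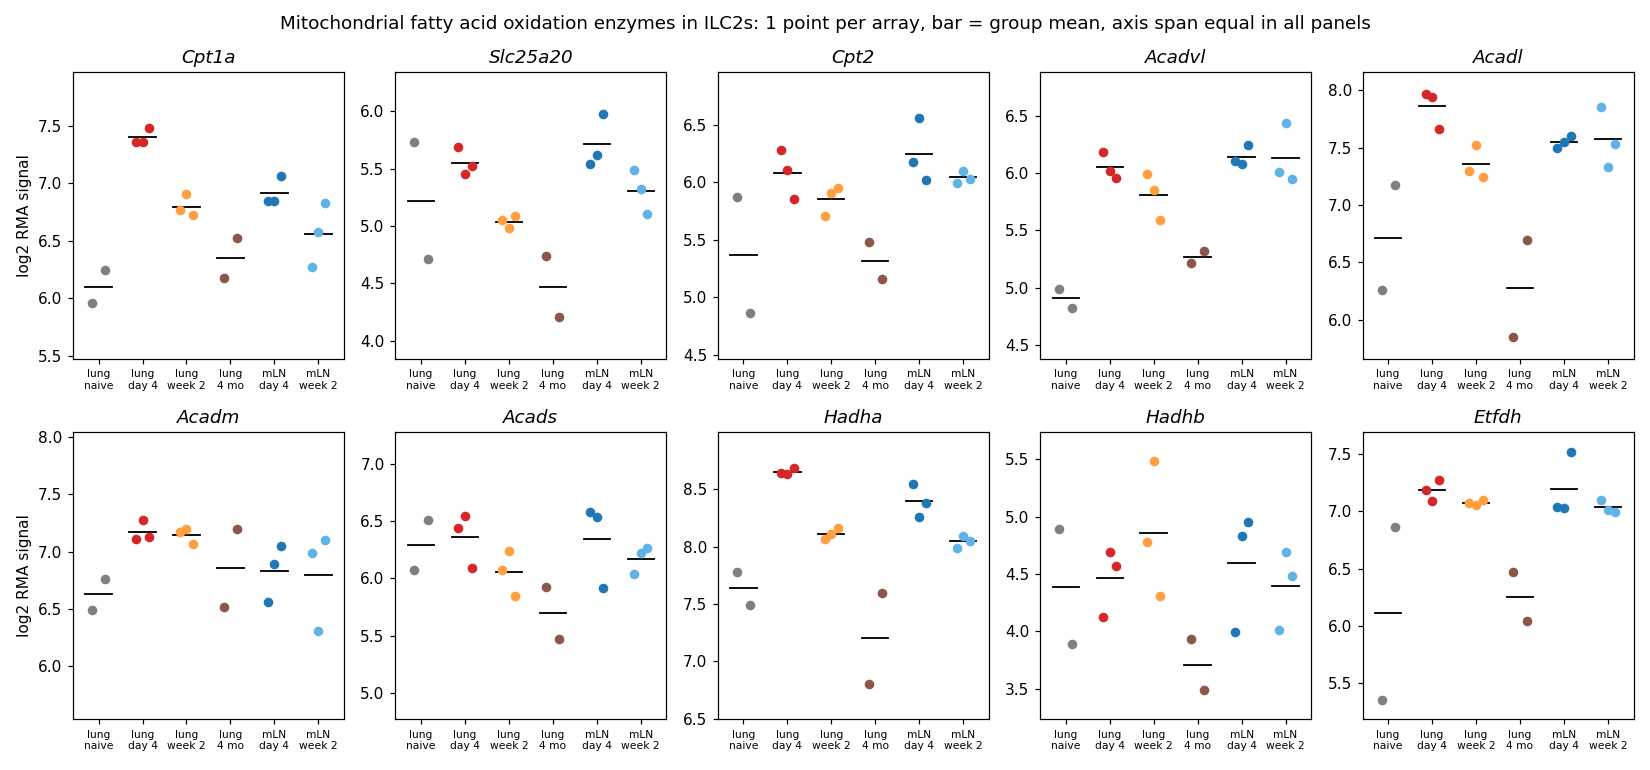
Log2 RMA signal (vertical axis) of the 10 genes on each of the 16 arrays, 1 point per array, by group (horizontal axis), with a bar at the group mean and the same axis span in every panel. For Cpt1a, Acadvl, Acadl, Hadha and Etfdh all 3 day 4 lung points lie above both naive points, while Acads and Hadhb overlap.

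Promoter windows were searched because 5 of the genes rose in 1 comparison. All 10 genes matched a window of 300 bases (RefSeq, GRCm38.p6), and 32851 windows were searched on both strands. The half-site of nuclear receptors, AGGTCA, was found for 3 of 10 genes (Cpt1a, Acadvl and Acadm) and in 16.3% of all windows. A repeat of this half-site with 1 base between the copies, the PPAR element, was found for 0 of 10 and in 0.0396% of windows. The oestrogen-related receptor element TCAAGGTCA, which contains the half-site, was found for 0 of 10 and in 0.423%. The GC box GGGCGG was found for 8 of 10 and in 35.7%, and the NRF1 palindrome for Etfdh alone and in 0.971%. Hadha and Hadhb are both among the 8 with a GC box, and their windows share 228 bases that hold a match, so they do not count independently. Cpt1a and Acadvl, the genes called at day 4 and week 2, and Acadm, which passed in neither, are shown with the half-site in capitals, 5′ to 3′ on the gene's strand. A match describes these letters and is not shown to be a site. The windows are chr19:3323051-3323350 (plus), chr11:70015379-70015678 (minus) and chr3:153944594-153944893 (minus).
Cpt1a: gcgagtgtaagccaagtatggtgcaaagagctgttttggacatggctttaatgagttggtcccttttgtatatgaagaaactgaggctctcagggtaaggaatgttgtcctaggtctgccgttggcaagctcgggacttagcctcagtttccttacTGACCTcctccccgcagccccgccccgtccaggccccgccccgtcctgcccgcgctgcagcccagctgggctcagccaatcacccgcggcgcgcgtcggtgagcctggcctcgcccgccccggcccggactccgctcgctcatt
Acadvl: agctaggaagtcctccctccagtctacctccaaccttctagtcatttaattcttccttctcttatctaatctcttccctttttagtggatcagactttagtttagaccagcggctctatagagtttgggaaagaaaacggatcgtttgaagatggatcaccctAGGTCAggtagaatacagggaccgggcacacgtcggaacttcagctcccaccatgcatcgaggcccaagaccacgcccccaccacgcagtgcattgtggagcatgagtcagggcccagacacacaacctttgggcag
Acadm: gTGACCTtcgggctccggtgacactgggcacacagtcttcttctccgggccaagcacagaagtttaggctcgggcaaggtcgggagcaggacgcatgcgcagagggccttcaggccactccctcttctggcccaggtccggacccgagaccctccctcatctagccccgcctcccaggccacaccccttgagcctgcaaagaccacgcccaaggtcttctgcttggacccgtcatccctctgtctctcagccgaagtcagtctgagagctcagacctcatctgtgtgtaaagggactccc

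Cpt1a encodes the outer membrane carnitine palmitoyltransferase that controls the entry of long-chain fatty acids into mitochondria. It measured 5.96 and 6.24 in naive lung, 7.36, 7.36 and 7.48 at day 4, 6.77, 6.90 and 6.72 at week 2, and 6.18 and 6.53 at 4 months in the lung. In the mLN it stood at 6.85, 6.85 and 7.06 at day 4 and 6.27, 6.57 and 6.83 at week 2. Day 4 lung was thus above each of the other groups with no overlap. Against naive lung, Cpt1a rose 2.47-fold at day 4 (log2 difference 1.30 ± 0.19, where ± after a difference is its standard error throughout, limma adjusted p = 0.000318). This was the only one of the 10 whose day 4 call passed in each of 26 alternative settings, with an adjusted p between 0.000216 and 0.0209. At week 2 it was still 0.70 ± 0.19 above naive lung (adjusted p = 0.0320), and this call was lost without naive replicate 1 (0.56, adjusted p = 0.157), without any 1 of the 3 week 2 replicates and with array weights, among other settings, with adjusted p from 0.0215 to 0.157 over the alternatives.

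The other genes of the shuttle were measured with more spread between the naive arrays. Slc25a20, the carnitine-acylcarnitine translocase of the inner membrane, measured 5.74 and 4.71 in naive lung and 5.45 to 5.68 at day 4 in the lung, a difference of 0.33 ± 0.26. Cpt2, the inner membrane transferase that remakes acyl-CoA in the matrix, measured 5.88 and 4.86 in naive lung and 5.86 to 6.29 at day 4, a difference of 0.71 ± 0.25 (adjusted p = 0.0646). Neither passed. Cpt2 passed with array medians centred (0.80, adjusted p = 0.0351). Both passed without naive replicate 1, a fit that gives the lone naive array the spread of the other groups: Cpt2 at 1.22 (adjusted p = 0.00406, from 0.00406 to 0.631 over 26 alternatives) and Slc25a20 at 0.84 (adjusted p = 0.0336, the lowest of a range up to 0.889). Without naive replicate 2 they were at 0.21 and -0.18. At week 2 Cpt2 was 0.48 ± 0.25 above naive lung (adjusted p = 0.241) and passed without naive replicate 1 (0.99, adjusted p = 0.0192). Slc25a20 measured 4.98 to 5.08 at week 2 and 4.74 and 4.21 at 4 months in the lung, and 5.54 to 5.98 at day 4 and 5.11 to 5.49 at week 2 in the mLN. Cpt2 measured 5.71 to 5.95 at week 2 and 5.48 and 5.16 at 4 months in the lung, and 6.00 to 6.56 over the 6 mLN arrays. Both were thus lower at 4 months than on every day 4 and week 2 array.

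The acyl-CoA dehydrogenases take the first step of each round, with overlapping preferences from very long chains (Acadvl) through long (Acadl) and medium (Acadm) to short ones (Acads). Acadvl measured 4.99 and 4.82 in naive lung, 6.18, 6.02 and 5.95 at day 4, 5.99, 5.85 and 5.59 at week 2, and 5.21 and 5.32 at 4 months in the lung. The naive arrays were the lowest of all 16. Acadvl rose 2.21-fold at day 4 (1.14 ± 0.19, adjusted p = 0.000784) and was higher at week 2 (0.90 ± 0.19, adjusted p = 0.00772). The week 2 call was lost with array weights and when these groups were fitted by themselves (adjusted p = 0.0633 and 0.0609, from 0.00469 to 0.0633 over 26 alternatives). In the mLN Acadvl measured 6.11, 6.08 and 6.24 at day 4 and 6.01, 6.44 and 5.94 at week 2, all above naive and 4-month lung. Acadl measured 6.26 and 7.17 in naive lung and 7.97, 7.94 and 7.66 at day 4, and it rose by 1.14 ± 0.27 (adjusted p = 0.00888), or by 0.68 (adjusted p = 0.129) without naive replicate 1, a call then lost. At week 2 Acadl stood at 7.30, 7.52 and 7.25 and its difference of 0.64 ± 0.27 from naive lung did not pass (adjusted p = 0.145, from 0.0260 to 0.772 over 26 alternatives). It was 1.10 and passed (adjusted p = 0.0260) without naive replicate 2, and 0.18 without naive replicate 1.

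Acadm measured 6.49 and 6.77 in naive lung and 7.11, 7.28 and 7.13 at day 4. The groups did not overlap, but the difference of 0.54 ± 0.25 did not pass (adjusted p = 0.141). Acads measured 6.07 and 6.51 in naive lung and 6.44, 6.54 and 6.09 at day 4. Its difference was 0.07 ± 0.24, with a 95% interval from -0.43 to 0.57. At 4 months Acadm measured 6.52 and 7.20 and Acads 5.92 and 5.47. In the mLN Acadm ran from 6.31 to 7.10, wider than the 7.07 to 7.28 of the day 4 and week 2 lung arrays, and Acads from 5.92 to 6.58.

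The differences from naive lung at day 4 were thus 1.14, 1.14, 0.54 and 0.07 in the order of falling chain length. This order was noted after the values were seen, so it was described on each array and not tested. The log2 signal of Acadvl minus that of Acads was -1.69 and -1.08 in naive lung and between -0.52 and 0.32 on the 12 arrays of day 4 and week 2 in both tissues, with no overlap. At 4 months it was -0.71 and -0.16. Acadl minus Acads was 0.19 and 0.66 in naive lung and between 0.92 and 1.82 on those 12 arrays, again with no overlap, and -0.07 and 1.22 at 4 months. Acadm minus Acads was 0.26 and 0.42 in naive lung, 0.67 to 1.03 at day 4 and 0.96 to 1.22 at week 2 in the lung, but overlapped naive lung in the mLN, where the lowest array was at -0.02.

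**Figure D2:**
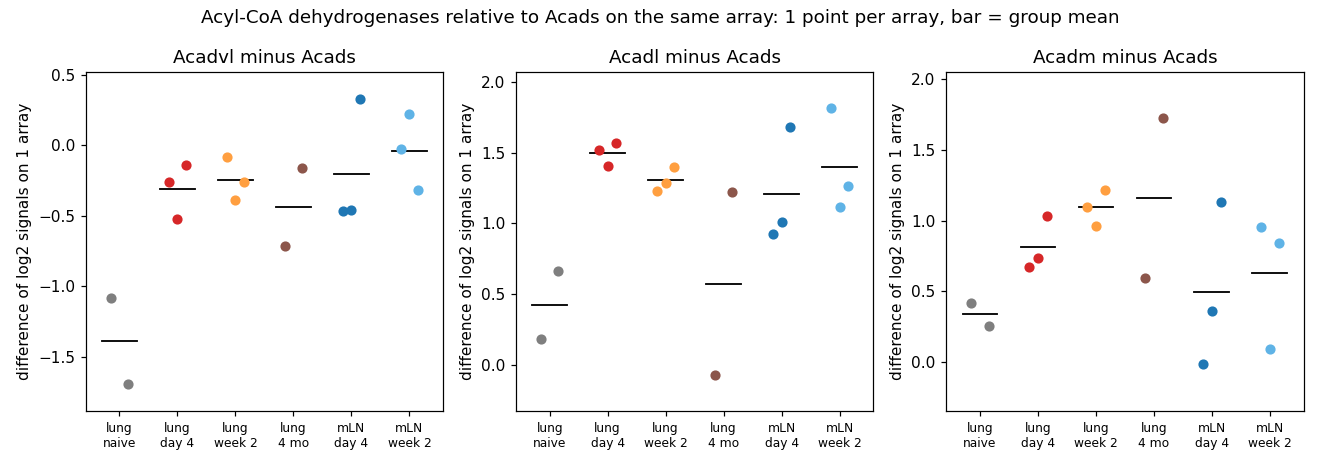
Log2 signal of Acadvl, Acadl and Acadm minus that of Acads on the same array (vertical axes), 1 point per array, by group (horizontal axes), with a bar at the group mean. The naive points of Acadvl and Acadl lie below all day 4 and week 2 points of both tissues, and the zero of each axis depends on the probe sets and carries no meaning. How many other pairs of genes separate in this way was not counted.

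Hadha and Hadhb encode the subunits of the trifunctional protein, which carries out the last steps of long-chain beta-oxidation at the inner membrane. Hadha measured 7.78 and 7.49 in naive lung, 8.64, 8.63 and 8.69 at day 4, 8.07, 8.11 and 8.16 at week 2 and 6.81 and 7.60 at 4 months in the lung. It rose 2.02-fold at day 4 (1.02 ± 0.20, adjusted p = 0.00319), and its difference at week 2 was 0.48 ± 0.20 (adjusted p = 0.152). The mLN arrays measured 8.54, 8.26 and 8.38 at day 4 and 7.99, 8.09 and 8.05 at week 2. Both tissues thus stood higher at day 4 than at week 2, with no overlap within either. Hadhb measured 4.89 and 3.89 in naive lung and 4.12, 4.69 and 4.57 at day 4, a difference of 0.07 ± 0.37 with a 95% interval from -0.70 to 0.85. Its probe set had the lowest mean of the 10 genes and the largest standard error. In the mLN it ran from 3.99 to 4.95 at day 4 and from 4.01 to 4.69 at week 2, within the spread of the lung arrays.

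The annotation places Hadha and Hadhb head to head on mouse chromosome 5, with start sites at 30154980 on the minus strand and 30155253 on the plus strand, 273 bases apart. Windows from 250 bases before to 50 after each start share 228 bases (RefSeq, GRCm38.p6). The Hadhb window is shown because its capitals are that shared stretch, which lies before the start of both genes (chr5:30155003-30155302, plus strand, 5′ to 3′).
Hadhb: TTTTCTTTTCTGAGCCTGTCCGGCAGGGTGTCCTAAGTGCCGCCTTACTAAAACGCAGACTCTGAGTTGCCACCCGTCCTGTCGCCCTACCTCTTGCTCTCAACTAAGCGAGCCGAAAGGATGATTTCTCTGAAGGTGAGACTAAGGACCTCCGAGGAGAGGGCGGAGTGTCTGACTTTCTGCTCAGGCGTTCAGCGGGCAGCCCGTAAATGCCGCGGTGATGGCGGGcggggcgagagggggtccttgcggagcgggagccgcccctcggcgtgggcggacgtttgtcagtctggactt
Over the 16 arrays the signals of Hadha and Hadhb correlated at r = 0.374, rank 30 of the 45 pairs among the 10 genes, and within groups at r = -0.15. The arrays share their groups and their normalization, so these values are descriptions.

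Etfdh, the oxidoreductase that passes electrons from the flavoprotein of the acyl-CoA dehydrogenases to ubiquinone, measured 5.36 and 6.87 in naive lung and 7.19, 7.09 and 7.28 at day 4. It rose by 1.07 ± 0.30 (adjusted p = 0.0242), and by 0.32 (adjusted p = 0.414) without naive replicate 1, where the call was lost. The call was also lost without day 4 replicate 1 or 3 (adjusted p = 0.0601 and 0.0575), with differences of 1.07 and 1.03. At week 2 Etfdh stood at 7.07, 7.05 and 7.10, and the difference of 0.96 ± 0.30 missed the threshold (adjusted p = 0.0557). It passed in 4 of 26 alternatives: with array medians centred (adjusted p = 0.0427), without dim genes (0.0452), with limma's trend and robust options (0.0483) and without naive replicate 2 (1.71, adjusted p = 0.000456). Without naive replicate 1 it was 0.21. At 4 months it measured 6.47 and 6.04, below all day 4 and week 2 arrays, and in the mLN it ran from 6.99 to 7.52. Etfa, a subunit of that flavoprotein and no member of the 10, measured 6.92 and 6.73 in naive lung and 8.45, 8.13 and 8.03 at day 4, a rise of 1.38 ± 0.22 (adjusted p = 0.000684).

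Beside these results, T cell markers were lower than in naive lung: 6 of 11 fell at day 4, 5 at week 2 and 5 at 4 months, and 0 rose. Of 16 macrophage markers 5 rose at day 4. The mean of 7 epithelial markers was 4.81 to 5.32 at day 4 and 4.68 to 5.38 at week 2 in the lung. Of the 7, 1 rose at day 4 and 2 at week 2. Naive lung had a mean of 4.32 to 4.38 and 4-month lung of 4.39 to 4.44. In the mLN it was 3.94 to 4.79 at day 4 and 3.75 to 4.15 at week 2. The mean of 7 dendritic cell markers was 5.25 and 5.18 on day 4 lung replicates 1 and 2 and 4.34 on replicate 3. The part of these transcripts was not tested. Whether T cells in the naive samples had a part in the differences was not tested, and fewer cells of a type and less RNA per cell cannot be told apart in bulk samples. The mean of the 10 genes was 6.70, 6.71 and 6.62 on day 4 lung replicates 1, 2 and 3, lowest on the replicate with the lowest macrophage mean, and the part of macrophage transcripts in the differences was not tested beyond the fits that follow. When the 3 arrays highest in macrophage transcripts were left out (day 4 lung replicates 1 and 2, week 2 lung replicate 3), the day 4 differences were 1.38 for Cpt1a (adjusted p = 0.0209), 1.16 for Etfdh (0.198), 1.05 for Hadha (0.0899), 1.05 for Acadvl (0.0539) and 0.95 for Acadl (0.228). With 1 day 4 lung array left, which takes its spread from the other groups, only Cpt1a was then called. With the mean of the macrophage markers as a covariate, 5 were called. Of 9 markers of dividing cells, 8 rose at day 4 in the lung, and their part in the members' differences was not tested.

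At week 2, 2 of the 10 genes, Cpt1a and Acadvl, were called higher than in naive lung, where 6.75% of all genes and 14.0% of those in the members' range were. The median of the 10 was 0.50. For 6 of 10 genes the week 2 groups did not overlap, that is they had all 3 arrays above both naive arrays, against 21.8% of all genes. Day 4 and week 2 share the same 2 naive arrays, so these counts are not independent of each other. The share without overlap was not counted among the genes in the members' range of levels, whose median difference was 0.26 at week 2. At 4 months 0 of the 10 passed against naive lung (limma; 2 at an unadjusted p under 0.05), where 1.97% of all genes were called, and the median was -0.24. The differences ran from -0.75 for Slc25a20 to 0.36 for Acadvl. Leaving out naive replicate 2 gave a call for Slc25a20 (-1.26, adjusted p = 0.0217), and leaving out 4-month replicate 2 gave one for Hadha (-0.83, adjusted p = 0.0296), each with a lone array in its group.

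**Figure D3:**
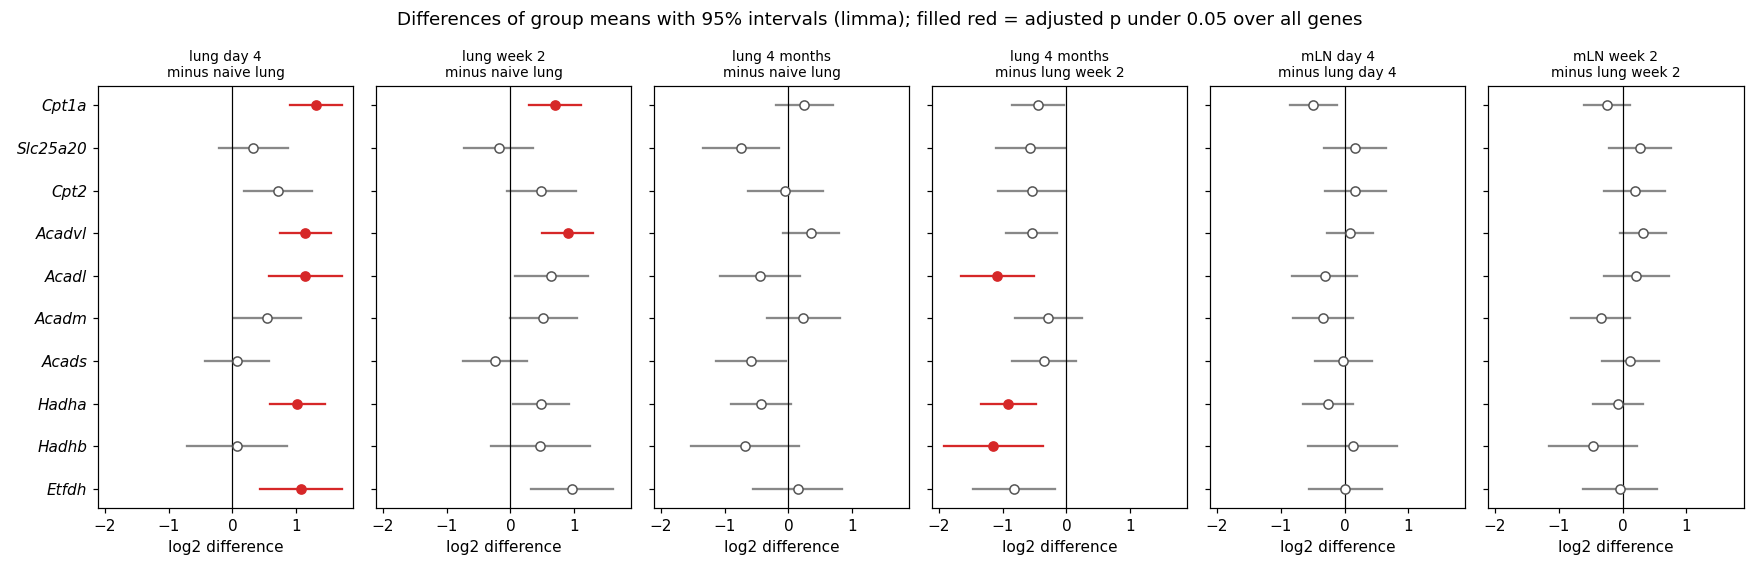
Log2 differences between group means (horizontal axes) with 95% intervals from limma for the 10 genes (vertical axis) in 6 comparisons; filled red points have an adjusted p under 0.05 over all genes. There are 5 calls at day 4 and 2 at week 2 against naive lung, 3 between 4 months and week 2, and 0 between mLN and lung.

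Between day 4 and week 2 in the lung, 0 of the 10 genes were called with all arrays in the fit (limma; 3 at an unadjusted p under 0.05; 1.81% of all genes called), while 9 of 10 differences were negative with a median of -0.28 against 0.01 over all genes. Cpt1a was 0.61 ± 0.17 lower at week 2 (adjusted p = 0.103) and Hadha 0.54 ± 0.18 lower (adjusted p = 0.199), each with no overlap between the groups. Their calls depended on which arrays set the spread and on their weights. In a fit without those 4 arrays, chosen after seeing the data, Cpt1a (adjusted p = 0.0484) and Hadha (adjusted p = 0.0321) were called, and with array weights likewise (adjusted p = 0.0132 and 0.0214). Over all 27 alternatives the adjusted p ran from 0.0132 to 0.873 for Cpt1a and from 0.0214 to 1.00 for Hadha, while the differences stayed between -0.73 and -0.56 and between -0.60 and -0.52. Slc25a20 (-0.51 ± 0.23) and Acadl (-0.50 ± 0.24) also had no overlap and did not pass. Of all genes, 11.9% lay lower at week 2 without overlap.

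In the mLN the same step gave 0 calls (limma; 0 at an unadjusted p under 0.05; 1.71% of all genes called), with a median of -0.18. Cpt1a (-0.36 ± 0.17), Slc25a20 (-0.40 ± 0.23) and Hadha (-0.35 ± 0.18) were lower on all 3 week 2 arrays than on all 3 day 4 arrays, as 8.51% of all genes were. Acadl stood at 7.50, 7.54 and 7.60 at day 4 and 7.85, 7.33 and 7.53 at week 2, a difference of 0.02 ± 0.24. The change from day 4 to week 2 was not shown to differ between the tissues for any of the 10 (interaction, 0 calls in limma and 0 at an unadjusted p under 0.05; 0.180% of all genes called). The widest of these differences of differences were -0.59 ± 0.46 for Hadhb and 0.53 ± 0.34 for Acadl.

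No gene of the 10 was called between mLN and lung at day 4 (limma; 1 at an unadjusted p under 0.05; 2.33% of all genes called) or at week 2 (0 at an unadjusted p under 0.05; 0.780% of all genes called). The medians were -0.00 and 0.04. Cpt1a was 0.49 ± 0.17 lower in the mLN at day 4 (adjusted p = 0.228), with a 95% interval from -0.85 to -0.12. Acadl, Acadm, Cpt1a and Hadha had all 3 mLN arrays below all 3 lung arrays, as 8.98% of all genes had. Intervals of the other 9 genes at day 4 spanned 0 and reached from -0.82 for Acadl to 0.82 for Hadhb, so differences of that size cannot be set aside. At week 2 the intervals of all 10 spanned 0, from -1.15 for Hadhb to 0.75 for Slc25a20. Cpt2 and Slc25a20 had all 3 mLN arrays above all 3 lung arrays then, as 9.97% of all genes had. Macrophage markers were lower in the mLN at day 4, where 5 of 16 fell and 0 rose, and markers of dividing cells were higher, where 8 of 9 rose.

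From week 2 to 4 months in the lung, Acadl, Hadha and Hadhb were lower, 3 of the 10, and 0 were higher. Over all genes 11.5% were called lower, and 24.6% of the genes in the members' range of levels, so 3 of 10 was near the background. All 10 differences were negative, with a median of -0.56. The median was -0.42 over the genes in the same range of levels and 0.02 over all genes. Acadl stood at 5.85 and 6.70 at 4 months, below all week 2 arrays, and fell by 1.08 ± 0.27 (adjusted p = 0.0144). Hadha fell by 0.91 ± 0.20 (adjusted p = 0.00901). Hadhb stood at 4.78, 5.48 and 4.31 at week 2 and 3.93 and 3.49 at 4 months, and fell by 1.15 ± 0.37 (adjusted p = 0.0427). Each of the 3 calls was lost without 4-month replicate 1, at -0.66, -0.52 and -1.37, where the lone array takes its spread from the other groups. The Acadl call was also lost without week 2 replicate 2 (adjusted p = 0.0515). The Hadhb call was lost without any 1 of 7 arrays: besides 4-month replicate 1, these were week 2 replicate 1 (-1.19) or 2 (-0.84), 4-month replicate 2 (-0.93), and day 4 lung replicate 2, mLN day 4 replicate 2 or mLN week 2 replicate 3, which left the difference at -1.15 (adjusted p = 0.0517, 0.0511 and 0.0512). It was also lost with the replicate number as a block (-1.15, adjusted p = 0.0607) and with array weights (-1.12, adjusted p = 0.181). All 3 calls were lost with only the groups compared and without the 3 arrays highest in macrophage transcripts. Acadvl (-0.54 ± 0.19, adjusted p = 0.0582) and Etfdh (-0.82 ± 0.30, adjusted p = 0.0731) missed the threshold, and both passed with array medians centred (adjusted p = 0.0231 and 0.0416) or without either naive replicate (adjusted p = 0.0497 and 0.00768). With quantile normalization repeated, Acadl was at -0.75 (adjusted p = 0.0792) and Hadha at -0.51 (adjusted p = 0.101). Of the 10 genes, 8 had both 4-month arrays below all week 2 arrays, which was so for 26.7% of all genes. That share was not counted among the genes in the members' range of levels, whose median difference was -0.42. The 8 of 10 therefore has no background of like level beside it.

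The rest of the pathway was followed in 4 lists, whose counts stand beside the shares given above: 10.8% of all genes and 21.6% of those in the members' range of levels were called higher at day 4, with a median of 0.27 in that range. Each list also holds genes outside that range, so it is not matched to the lists. Of 24 other mitochondrial beta-oxidation genes, 5 rose and 0 fell at day 4 against naive lung, with a median of 0.30, both near the values of that range. Besides Etfa, these included Echs1, the short-chain enoyl-CoA hydratase (1.09 ± 0.26, adjusted p = 0.00962), and Acaa2, a thiolase (0.96 ± 0.29, adjusted p = 0.0348). At week 2, where 6.75% of all genes were called higher, Etfa alone of this list rose (0.91 ± 0.22, adjusted p = 0.0180). At 4 months against naive lung, where 1.97% of all genes were called, 2 fell, Acsl5, an acyl-CoA synthetase (-1.04 ± 0.18), and Acat1, the acetoacetyl-CoA thiolase (-0.93 ± 0.18). From week 2 to 4 months 5 fell and 0 rose, among them Echs1 (-1.26 ± 0.26), Acat1 (-1.08 ± 0.17) and Etfb, the other flavoprotein subunit (-0.93 ± 0.22). Of all genes 11.5% were called lower in that comparison, and 24.6% of those in the members' range, so 5 of 24 was near the share of that range. The median of the list was -0.30, against -0.42 in that range. In the comparisons of lung and mLN, and of day 4 and week 2, 0 of the 24 were called.

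Among 14 peroxisomal beta-oxidation genes the median difference at day 4 was 0.44, with 2 that rose and 1 that fell. Ech1, a dienoyl-CoA isomerase, rose by 1.21 ± 0.20 (adjusted p = 0.000781) and Crot, the carnitine octanoyltransferase, by 0.61 ± 0.19 (adjusted p = 0.0351), while Acox2, an acyl-CoA oxidase, fell by 0.86 ± 0.19 (adjusted p = 0.00637). Acox2 was dim, at 3.42 and 3.89 in naive lung and 2.71, 2.79 and 2.88 at day 4, which limits what its fall can show. Crot measured 6.92 and 6.87 in naive lung and 7.75, 7.74 and 7.68 at week 2, when it was 0.83 ± 0.19 higher (adjusted p = 0.0116), as was Ech1 (0.70 ± 0.20, adjusted p = 0.0365).

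Among 21 regulators and targets the median was 0.25 at day 4, where 5 rose and 1 fell. Pparg, a nuclear receptor for fatty acids that is well expressed in ILC2s, measured 8.38 and 7.68 in naive lung and 8.74, 8.83 and 8.91 at day 4, a rise of 0.79 ± 0.25 (adjusted p = 0.0404). Prkaa1, a catalytic subunit of the energy sensor AMPK, rose by 1.31 ± 0.38 at day 4 and by 1.39 ± 0.38 at week 2, with naive arrays at 5.33 and 7.14. Sirt3, a mitochondrial deacetylase, rose by 0.92 ± 0.25 at day 4 (adjusted p = 0.0180). Ppara, the receptor that drives these enzymes in liver, stood between 2.21 and 3.01 on all 16 arrays. Tfam, which packages and transcribes mitochondrial DNA, stood at 4.01 and 3.99 at 4 months, below every other array, and was lower there than in naive lung (-1.24 ± 0.29, adjusted p = 0.0355) and than at week 2 (-1.58 ± 0.26, adjusted p = 0.00194). Nrip1, a corepressor of nuclear receptors, fell from week 2 to 4 months (-0.90 ± 0.20), as did Plin2, a lipid droplet coat protein (-0.92 ± 0.21). Nrip1 was also lower in mLN than in lung at day 4 (-0.79 ± 0.18, adjusted p = 0.0216).

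Tricarboxylic acid cycle enzymes, which burn the acetyl-CoA that beta-oxidation releases, were given for comparison with mitochondrial genes outside the pathway. Of 17 measured, 4 rose and 0 fell at day 4 and all 17 differences were positive, with a median of 0.39. The dehydrogenase subunit Dld rose by 1.26 ± 0.21 at day 4 and by 1.30 ± 0.21 at week 2, and the malate dehydrogenase Mdh2 by 0.92 ± 0.21 at day 4. From week 2 to 4 months 8 of 17 fell and 0 rose, with a median of -0.50, Idh3g among them (-1.16 ± 0.17). Of all genes 11.5% were called lower then, and 24.6% of those in the members' range, where the median was -0.42. At 4 months against naive lung, where 1.97% of all genes were called, 2 of 17 fell, the succinate dehydrogenase subunit Sdhb (-0.91 ± 0.20) and the isocitrate dehydrogenase subunit Idh3g (-0.86 ± 0.19). Fh1, the fumarase, was the gene of this list called between the tissues, 0.93 ± 0.17 higher in mLN than in lung at day 4, and it fell by 0.81 ± 0.17 from day 4 to week 2 in the mLN.

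**Figure D4:**
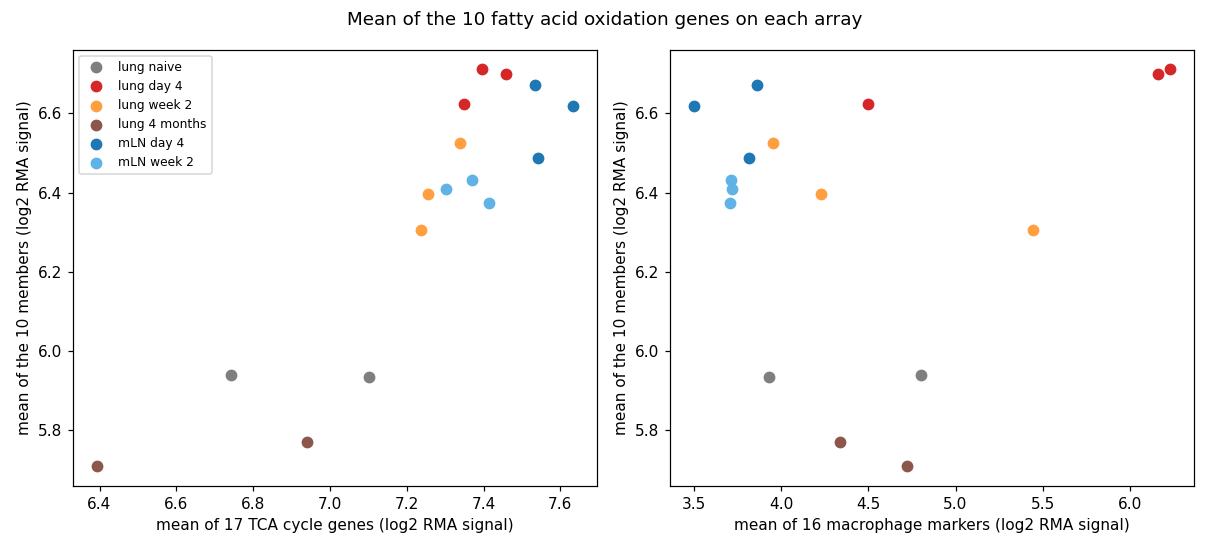
Mean log2 RMA signal of the 10 genes (vertical axes) on each array against the mean of 17 tricarboxylic acid cycle genes (left) and of 16 macrophage markers (right), 1 point per array, coloured by group. The naive and 4-month arrays lie between 5.71 and 5.94, the other 12 between 6.31 and 6.71, and the day 4 lung arrays lie at macrophage means of 6.16, 6.23 and 4.50 with member means of 6.70, 6.71 and 6.62.

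The mean of the 10 genes was 5.93 and 5.94 in naive lung, 6.62 to 6.71 at day 4, 6.31 to 6.52 at week 2 and 5.71 and 5.77 at 4 months in the lung, and 6.49 to 6.67 at day 4 and 6.37 to 6.43 at week 2 in the mLN. Among the 45 pairs of genes, 43 correlated positively over the 16 arrays, with a median r of 0.463, but within groups 21 did, with a median r of -0.05. The genes thus moved together between groups more than between replicates. The correlations of other pairs of genes were not counted, and genes in the members' range of levels also shifted between groups. This is therefore not shown to be particular to the 10. The closest pairs were Acadl with Hadha (r = 0.842), Cpt1a with Hadha (0.823) and Acadl with Etfdh (0.782), and the lowest Acadm with Acads (-0.14), Acadm with Slc25a20 (-0.11) and Acadm with Cpt2 (0.0210). The genes outside the 10 whose signal followed their mean most closely over the 16 arrays were Srp72 (r = 0.970), Copb2 (0.966), Cops2 (0.964), P4hb (0.959) and Dctn2 (0.955). Each of these also had its lowest group means at 4 months and in naive lung, the arrays of narrower signal range.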

How the data were processed

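The authors deposited a log2 signal for each probe set on each array, which per the submitters' processing notes came from RMA in Affymetrix Expression Console; their versions are not known here. Per the labels' protocols, Trizol was used for RNA and a Nugen Encore biotin kit for labelling. Of 41345 probe sets, 23521 had 1 gene symbol, and the one with the highest mean was kept for each of 22180 genes. Group means were fitted to all 16 arrays with limma 3.58.1 in R 4.3.3 (lmFit, eBayes; 10 residual and 6.52 prior degrees of freedom), with contrasts for 9 comparisons, two-sided tests and Benjamini-Hochberg adjustment over all genes. The labels call the arrays biological replicates, and their number limits the precision. Named were the 10 genes in every comparison, up to 3 called genes of each of 4 lists with the largest difference, the 5 genes most correlated with the members' mean (predicted genes left out) and the 3 highest and lowest pairs. Ppara was named outside this rule, for its level. Members and lists were chosen with earlier results of these data known. The procedure was tested on simulated data, and no result of that is given or used here. Of 36 correlations between the deviations of same-numbered replicates, 2 were over 0.1, and they ran from -0.10 to 0.18. The same-numbered array was the best match in 19 of the 36. With 2 or 3 arrays in a group, matches also arise without pairing, and in groups of 2 the deviations mirror each other. The rate without pairing was not computed, so the count does not decide the pairing. The labels do not give the pairing, and the main fit used none. Figures used matplotlib 3.10.9.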

Additional observations from a re-analysis of the deposited data

How the results depend on the processing

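The alternatives were array weights, array medians centred, quantile normalization repeated, dim genes left out (highest group mean under the 40th percentile), limma's trend and robust options, averaging probe sets within genes, replicate number as block, only the groups compared, the macrophage mean as a covariate, leaving out 3 lung arrays high in macrophage transcripts, leaving out each array and, added after seeing the data, leaving out the naive and 4-month arrays. Of the member differences under the alternatives other than leaving out 1 array, 914 kept their side of the threshold, 23 lost a call, 13 gained one and 0 called differences changed sign (68 uncalled ones did, over all alternatives). At day 4 against naive lung, 5 members were called, 3 with only the groups compared, 1 without the 3 macrophage-high arrays and 6 with array medians centred. Of the 2 at week 2, 0 were called with array weights and with only the groups compared, and 1 with quantile normalization repeated and without the macrophage-high arrays. Between week 2 and day 4 in the lung, where 0 were called, 2 were called with array weights, 1 with only the groups compared and 2 without the naive and 4-month arrays. Between 4 months and week 2, 3 were called, 5 with array medians centred (Acadvl and Etfdh gained), 1 with quantile normalization repeated, 1 with only the groups compared (Etfdh alone, not one of the 3) and 0 without the macrophage-high arrays. Leaving out 1 array gave 4 to 5 calls at day 4, 1 to 4 at week 2 and 0 to 1 at 4 months against naive lung, and 0 to 5 between 4 months and week 2; the other comparisons stayed at 0. The members called at day 4 were not always the same ones. Without naive replicate 1, Acadl (0.68) and Etfdh (0.32) were lost, and Cpt2 (1.22) and Slc25a20 (0.84) were gained. The cause of these changes was not tested. With the replicate number as a block, 5, 2 and 0 members were called at day 4, week 2 and 4 months against naive lung and 2 between 4 months and week 2, where Hadhb was lost; in the other comparisons 0 were called. The pairing of replicate numbers is not given by the labels. Same-numbered arrays correlated best with each other in 19 of 36 cases, a count that does not decide the pairing, since the rate without pairing was not computed.

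Counts of all genes moved too: 3677 genes were called at day 4 against naive lung, 1627 with array weights, 1380 with only the groups compared, 1899 with the macrophage covariate and 688 without the macrophage-high arrays. At week 2 the count was 2134, against 728, 525, 2006 and 683, and 1158 with quantile normalization. At 4 months against naive lung it was 436, against 4 with array weights, 0 with only the groups compared, 783 with quantile normalization and 182 without the macrophage-high arrays. Between 4 months and week 2 it was 3633, against 1196, 1721, 1421 and 1073 in that order. Between week 2 and day 4 in the lung it was 401, and 1409 with array weights, 689 without the naive and 4-month arrays, 168 with the macrophage covariate and 46 without the macrophage-high arrays. Between the tissues it was 517 at day 4, against 939 with array weights, 138 with the covariate, 201 without the macrophage-high arrays and 792 without the naive and 4-month arrays, and 173 at week 2, against 692, 156, 74 and 342 (310 with only the groups compared). In the mLN over time it was 379, and 629 with array weights. The interaction count was 40, and 205 with array weights, 21 with the covariate, 13 without the macrophage-high arrays and 102 without the naive and 4-month arrays or with only the groups compared. Acox2 was too dim to be tested once dim genes were left out. No detection calls were used, so levels near background, as for Hadhb and Ppara, limit what a small difference there can show.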
